A study of Mus musculus with 24 samples.

Results

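The samples described here are the 12 day 3 arrays of a mouse quadriceps series of 24 arrays, ranked by how much adiponectin transcript each muscle sample carried. The members were chosen by their measured Adipoq level: within each diet the 6 arrays were ordered by its log2 intensity, and the 3 highest, called the upper arrays, were set against the 3 lowest, called the lower arrays, which gave 6 against 6. The study fed male mice palm oil diets, low fat at 10 kcal% and high fat at 45 kcal%, for 3 or 28 days, with 6 mice in each of the 4 groups and 1 Affymetrix array per mouse. The mice were C57BL/6J, written C56BL/6J in the sample labels. At 9 weeks of age all were placed on the low fat diet for 3 weeks, after which assignment to a diet was random per the labels, so that age was 12 weeks at day 3 and 16 weeks at day 28. Low fat and high fat mice carried separate ranges of mouse numbers, so the effect of diet and that of the set of animals cannot be told apart. The labels omit the DNase step for low fat day 3 replicate 1 and name it for the other 23 arrays.

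Adipocytes store triglyceride in a large lipid droplet, release fatty acids from it when hormones activate lipases, and secrete hormones such as adiponectin and resistin. White adipocytes also make fatty acids from glucose, while brown and beige adipocytes carry many small droplets and burn fuel through the uncoupling protein Ucp1. Fat cells lie between the fibres and bundles of a limb muscle and around it, so that a dissected quadriceps can include them, and the transcripts of adiponectin and of mouse resistin come mainly from fat cells.

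The 4 marker genes are Adipoq (the hormone adiponectin), Cidec (a protein that enlarges lipid droplets), Retn (the hormone resistin) and Fasn (fatty acid synthase). The 250 bases before their RefSeq start sites are printed to show where these co-varying transcripts begin. They were read from the promoter table of build GRCm38.p6, 5′ to 3′ on the gene's strand. Adipoq lies at chr16:23146286-23146535 (plus strand), Cidec at chr6:113435761-113436010 (minus strand), Retn at chr8:3655520-3655769 (plus strand) and Fasn at chr11:120824548-120824797 (minus strand).
Adipoq: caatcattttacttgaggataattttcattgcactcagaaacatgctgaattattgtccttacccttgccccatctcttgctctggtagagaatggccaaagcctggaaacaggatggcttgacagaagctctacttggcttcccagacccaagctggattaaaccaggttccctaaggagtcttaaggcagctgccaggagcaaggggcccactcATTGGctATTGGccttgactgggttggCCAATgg
Cidec: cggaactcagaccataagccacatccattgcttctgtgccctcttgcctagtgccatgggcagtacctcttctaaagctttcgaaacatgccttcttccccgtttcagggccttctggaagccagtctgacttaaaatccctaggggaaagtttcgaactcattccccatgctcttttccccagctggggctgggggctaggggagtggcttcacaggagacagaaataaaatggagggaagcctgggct
Retn: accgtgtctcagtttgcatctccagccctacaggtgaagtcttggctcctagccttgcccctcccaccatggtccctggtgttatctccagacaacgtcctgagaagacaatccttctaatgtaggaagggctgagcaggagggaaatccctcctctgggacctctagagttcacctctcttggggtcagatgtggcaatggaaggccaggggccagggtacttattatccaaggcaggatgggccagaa
Fasn: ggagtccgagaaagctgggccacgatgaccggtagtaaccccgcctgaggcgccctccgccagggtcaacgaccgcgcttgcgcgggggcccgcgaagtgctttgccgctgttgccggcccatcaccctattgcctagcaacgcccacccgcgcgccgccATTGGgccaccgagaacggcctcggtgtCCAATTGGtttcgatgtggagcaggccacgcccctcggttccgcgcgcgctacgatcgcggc
Capitals mark matches to any of 8 motifs searched on both strands. The nuclear receptor word is AGGTCA, present in 14% of the 32817 promoters of that length that were searched. Among the 17 genes counted below it was found in H2-Q10 and Acly. The core word of C/EBP factors is TTNNGCAA (9.57% of promoters), which also covers their palindrome TTGCGCAA (0.165%), and neither was found in a counted gene. For the E-box the letters were CACGTG (6.02%), found in Lipe and 4931406C07Rik. The TATA word was read as TATAAA (12.4%), found in H2-Q10. The PPAR direct repeat (0.0335%), which holds the nuclear receptor word, and the NFI palindrome (0.0366%) are given by name alone and were found in no counted gene. The last motif, CCAAT (33.8%), was the only one found in the 4 printed windows, with 3 matches each in Adipoq and Fasn, where a match on the other strand reads as its reverse complement. Of the 17 counted genes, 12 had a promoter in the set searched, which did not cover every chromosome. A match is a description of these letters and not a binding site.

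The arrays of a diet covered a wide range of adiponectin transcript at day 3. On low fat, the log2 level of Adipoq was 10.90, 10.75 and 10.72 in upper replicates 2, 5 and 6, and 10.12, 9.86 and 8.31 in lower replicates 4, 3 and 1. On high fat it was 10.97, 9.55 and 8.82 in upper replicates 5, 6 and 1, and 8.70, 8.05 and 7.49 in lower replicates 4, 2 and 3. The boundary was narrow on high fat, where replicate 1 at 8.82 was just inside the upper arrays and replicate 4 at 8.70 just outside, while on low fat replicate 6 at 10.72 and replicate 4 at 10.12 lay on either side. Low fat replicate 1 stood below the other low fat arrays, and high fat replicate 5 stood above the other high fat arrays and at the level of the low fat upper arrays. Ranking by the mean of Cidec, Retn and Fasn, or by the mean of Lipe and Fabp4, gave the same upper and lower arrays in both diets. In a piece of tissue, fewer fat cells and less RNA per fat cell cannot be told apart. Because the arrays were ordered by a measured gene, every difference between upper and lower arrays at day 3 is a description, and no test was made of it.

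The other markers followed the same order of arrays. Cidec was at 9.02, 8.87 and 8.24 in the low fat upper arrays and at 7.70, 7.02 and 5.25 in the lower ones. On high fat it was at 8.10, 5.83 and 4.91 in the upper arrays and at 4.11, 3.81 and 3.45 in the lower ones. Upper and lower arrays did not overlap in either diet, and the mean of the differences within the diets was 2.27 (log2). Retn, the resistin transcript, was at 8.77, 8.57 and 8.39 against 7.65, 7.11 and 5.53 on low fat. On high fat Retn was at 8.91, 6.21 and 5.27 against 4.75, 4.66 and 4.37, again without overlap, with a mean difference of 2.01. Fasn, which makes palmitate, was at 10.80, 10.72 and 10.11 against 9.44, 9.25 and 6.88 on low fat. On high fat it was at 10.17, 7.50 and 4.76 against 5.42, 5.21 and 4.55, so that upper replicate 1 lay below 2 lower arrays, although the mean difference was 2.22. Besides Adipoq, which set the order, Cidec and Retn were apart in both diets and Fasn on low fat alone. Of the 5793 genes that passed the filter on low values, 0.604% were apart upwards in both diets.

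**Figure D1:**
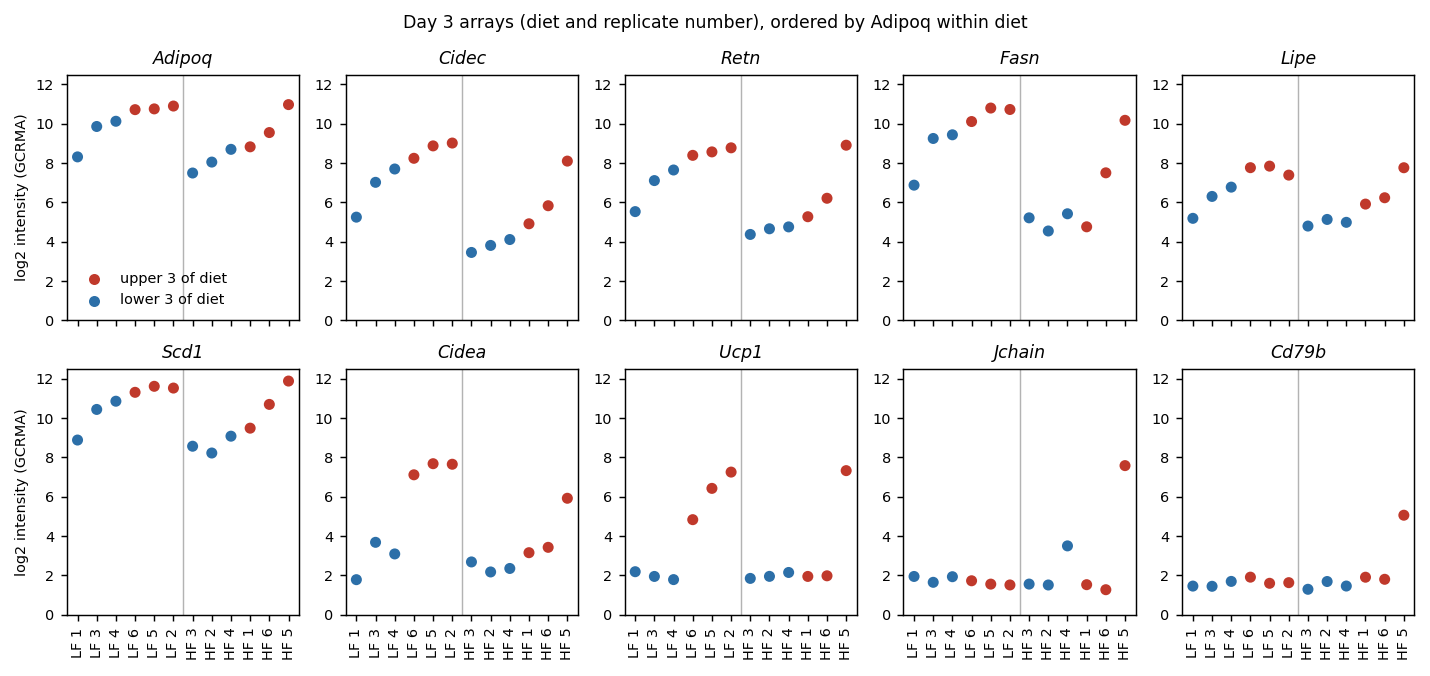
Log2 intensity of 10 genes (vertical axis) on each day 3 array, named by diet and replicate number and ordered by Adipoq within diet, with the upper 3 arrays of each diet in red and the lower 3 in blue. Cidec, Retn, Lipe, Scd1 and Cidea separate red from blue in both diets, Ucp1 is high on 4 arrays, and Jchain and Cd79b are highest on high fat replicate 5.

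Across all genes the pattern was narrow and pointed one way. A gene was counted when the upper and lower arrays did not overlap in both diets and the mean of the within-diet differences was at least 1 on the log2 scale, a 2-fold difference. Of 5793 genes that passed the filter on low values, 17 were counted as higher in the upper arrays (0.293%), Adipoq among them, and 0 as lower. Without the requirement on size, 35 genes did not overlap upwards (0.604%) and 20 downwards (0.345%). A mean difference of at least 1, with or without overlap, was seen for 47 genes (0.811%), and the lowest mean difference of any gene was -0.87. The median over all genes was -0.02, with 42.8% of genes above 0.

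Of the 16 counted genes besides Adipoq, 3 were on the lipid droplet list (Cidea, Cidec and Lipe), 3 on the lipogenesis list, 2 on the adipocyte identity list, 1 on the triglyceride synthesis list and 1 on the adipokine list, and 6 were on none. Cidea, a lipid droplet protein of brown and beige fat and the relative of Cidec, had the largest mean difference, 3.20. Its level was 7.68, 7.65 and 7.12 in the low fat upper arrays against 3.68, 3.09 and 1.79 in the lower ones. On high fat it was 5.92, 3.43 and 3.16 against 2.69, 2.35 and 2.18. The low fat gap was the wider of the 2, and on high fat all arrays but replicate 5 were dim. Lipe, the hormone-sensitive lipase that releases fatty acids from the droplet, was at 7.84, 7.76 and 7.39 against 6.78, 6.30 and 5.19 on low fat. On high fat Lipe was at 7.76, 6.24 and 5.91 against 5.13, 4.99 and 4.80, and its mean difference was 1.62. Pck1, which supplies the glycerol backbone of triglyceride by glyceroneogenesis in fat cells, had a mean difference of 1.97. Its 6 upper arrays ranged from 4.77 to 8.92 and its 6 lower arrays from 3.95 to 7.60, which overlap between the diets but in neither diet.

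On the lipogenesis list the counted genes were Scd1, Acly and Tkt. Scd1, the desaturase that makes oleate, was bright on every array. It was at 11.62, 11.53 and 11.31 against 10.86, 10.44 and 8.88 on low fat, and at 11.88, 10.70 and 9.49 against 9.08, 8.57 and 8.22 on high fat. The mean difference of Scd1 was 1.74, that of Acly, which supplies cytosolic acetyl-CoA, was 1.35, and that of Tkt, a transketolase of the pentose phosphate pathway, was 1.16. Paralogs such as Scd2 can share probes with Scd1, and Arxes2 with Arxes1, so that the split between such copies is uncertain. Arxes1, a gene of adipocyte differentiation, had a mean difference of 1.23, and Arxes2 one of 1.91 with overlap. On high fat Arxes1 was at 4.29, 1.74 and 1.60 against 1.36, 1.17 and 0.97, below the array medians outside replicate 5.

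The rest of the counted genes are of mixed function. Tmem45b, a membrane protein, had 2.60, Acp5, the tartrate-resistant acid phosphatase, 1.82, and H2-Q10, a class I histocompatibility gene close in sequence to its neighbours, 1.58. On high fat H2-Q10 was at 4.87, 2.68 and 2.23 against 2.21, 2.11 and 2.08, where the array medians were 2.74 to 2.79. Aoc3, a surface amine oxidase abundant on adipocytes, had 1.39, and 4931406C07Rik had 1.18. Fah, an enzyme of tyrosine breakdown, had 1.07, and Nnmt, a nicotinamide methyltransferase of fat and liver, had 1.05, and these last 2 are outside the naming rule and were named after their values were seen. Fah on high fat was at 4.20, 2.86 and 2.80 against 2.66, 2.66 and 2.60, so that it too was near the array medians outside replicate 5.

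**Figure D2:**
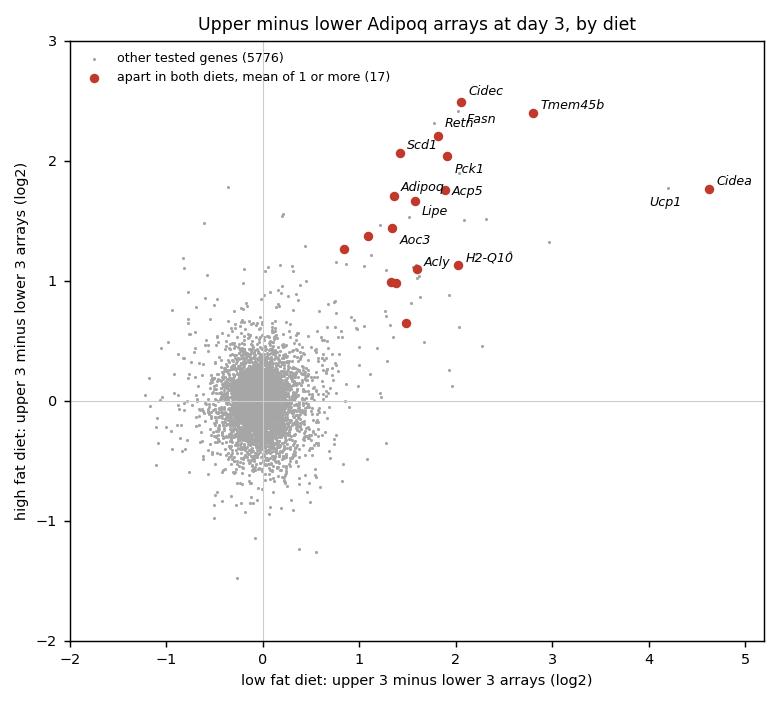
Each point is 1 of 5793 genes, with the upper minus lower difference on low fat (horizontal, log2) and on high fat (vertical, log2) at day 3. The 17 counted genes in red lie in the upper right, from Nnmt at 1.05 to Cidea at 3.20 in the mean of both diets, and no gene lies as far out in the lower left.

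A single array weighed on the high fat side. High fat replicate 5 had Cidec, Retn, Fasn and Lipe near the levels of the low fat upper arrays. Without it the high fat difference was 1.58 in place of 2.49 for Cidec, 1.15 in place of 2.20 for Retn, and 0.29 in place of 1.10 for Acly. For H2-Q10, Fah, Arxes1 and Tkt the high fat difference became 0.32, 0.19, 0.50 and 0.30, in place of 1.13, 0.64, 1.37 and 0.99. On low fat, leaving out replicate 1 gave 1.35 in place of 2.05 for Cidec and 1.20 in place of 1.82 for Retn. Without these 2 arrays 9 of the 17 genes still met the minimum mean difference. All 17 stayed apart in both diets, which had to be so, because removing arrays cannot create an overlap. Of the 11 genes then counted, the other 2 were Hspa1a and Hspa1b, near-identical heat shock genes. Leaving out high fat replicate 1, the array next to the boundary, gave 36 counted genes. With fewer arrays non-overlap is easier to meet. The genes apart in both diets then rose from 35 upwards and 20 downwards to 75 and 44.

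The lists of adipokines, lipogenesis, adipocyte identity, triglyceride synthesis, lipid droplets and fatty acid uptake had medians above that of all genes. So did lists of other function, so that this was not particular to the fat lists. Among them were taurine and cysteine (0.79, 3 tested), interferon response (0.31, 2 tested), immediate early (0.25, 9 tested) and endothelial genes (0.10, 12 tested). Of 12 adipokines 6 were tested, one of them Adipoq itself. The other 5 were higher in the upper arrays, with a median difference of 1.33 against -0.02 for all genes, and 4 of them differed by at least 1. Besides Retn these were Orm1, an acute phase lipid carrier (2.04), Angptl4, an inhibitor of lipoprotein lipase (1.33), and Nrg4, a factor secreted by brown fat (1.25). Leaving out high fat replicate 5 gave Orm1, Angptl4 and Nrg4 high fat differences of 1.32, 0.77 and 0.13, in place of 2.31, 1.04 and 0.86. Rarres2, the chemerin transcript, had 0.55. The hormone leptin did not pass the filter, and its level was 3.66 on high fat replicate 5 and 1.53 to 2.40 on the other 11 arrays. Of 13 tested lipogenesis genes of 19, 12 were higher, with a median of 1.15, and 7 differed by at least 1. Among these, Elovl6, an elongase, had 1.90, Slc25a1, the citrate carrier, 1.72, and Thrsp, a lipogenic regulator, 1.15. Without high fat replicate 5 their high fat differences were 0.28, 0.018 and 0.15, in place of 1.24, 1.22 and 0.99. The exception was Mlxipl, the carbohydrate response factor ChREBP, at -0.08, the mean of 0.34 on low fat and -0.50 on high fat. Mid1ip1 was also below 0 on high fat, at -0.02, and at 0.16 on low fat.

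The identity genes of the fat cell followed. Of 11 tested of 19, 10 were higher, with a median of 0.97. Pparg and Cebpa, the transcription factors that drive adipocyte differentiation, differed by 0.97 and 1.31, with overlap. Mrap, the accessory protein of the melanocortin receptor, differed by 1.79, and Fabp4, a fatty acid carrier also found in capillaries, by 0.55. Without high fat replicate 5 the high fat differences of Pparg, Cebpa, Mrap and Fabp4 were -0.04, 0.34, 0.13 and 0.13. With it they were 0.63, 1.02, 1.51 and 0.44. Ebf1, an early factor, was at -0.14. In the triglyceride synthesis list all 8 tested of 12 were higher, with a median of 0.50, among them Pcx (0.79), Dgat2 (0.78) and Dgat1 (0.72). Without high fat replicate 5 the high fat differences of these 3 were 0.073, 0.38 and -0.17, in place of 0.61, 0.83 and 0.44. Members that passed the filter only through bright arrays had to differ, so these counts describe the tested members and not the whole lists.

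In the lipid droplet list, 12 of 13 tested of 15 were higher, with a median of 0.32. Cidec, Cidea and Lipe stood apart from Pnpla2, the first lipase of triglyceride breakdown (0.32), Plin4 (0.26), Plin5, a droplet coat protein of oxidative muscle (0.27), and Plin3 (-0.03). Pnpla2, Plin4 and Plin5 were at 0.69, 0.58 and 0.54 on low fat and at -0.056, -0.065 and 0.0039 on high fat. Fatty acid uptake genes had a median of 0.18, with 5 of 7 tested above 0, and lipoprotein lipase, Lpl, was at 0.23. Fatty acid oxidation genes were above 0 in 21 of 22 cases with a median of 0.12, and the largest, Ehhadh of the peroxisome, had 1.21 on low fat and 0.06 on high fat. Oxidative phosphorylation genes had a median of -0.03, fast fibre genes -0.01 and general muscle fibre genes -0.01. The order of the lists rested in part on high fat replicate 5. Without it the high fat medians were 0.77 for the adipokines besides Adipoq, 0.15 for lipogenesis and 0.14 for identity genes, against 1.08, 0.99 and 0.88 with it. They were 0.077 for triglyceride synthesis, 0.22 for the lipid droplet list and 0.14 for uptake, against 0.50, 0.18 and 0.25 with it.

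**Figure D3:**
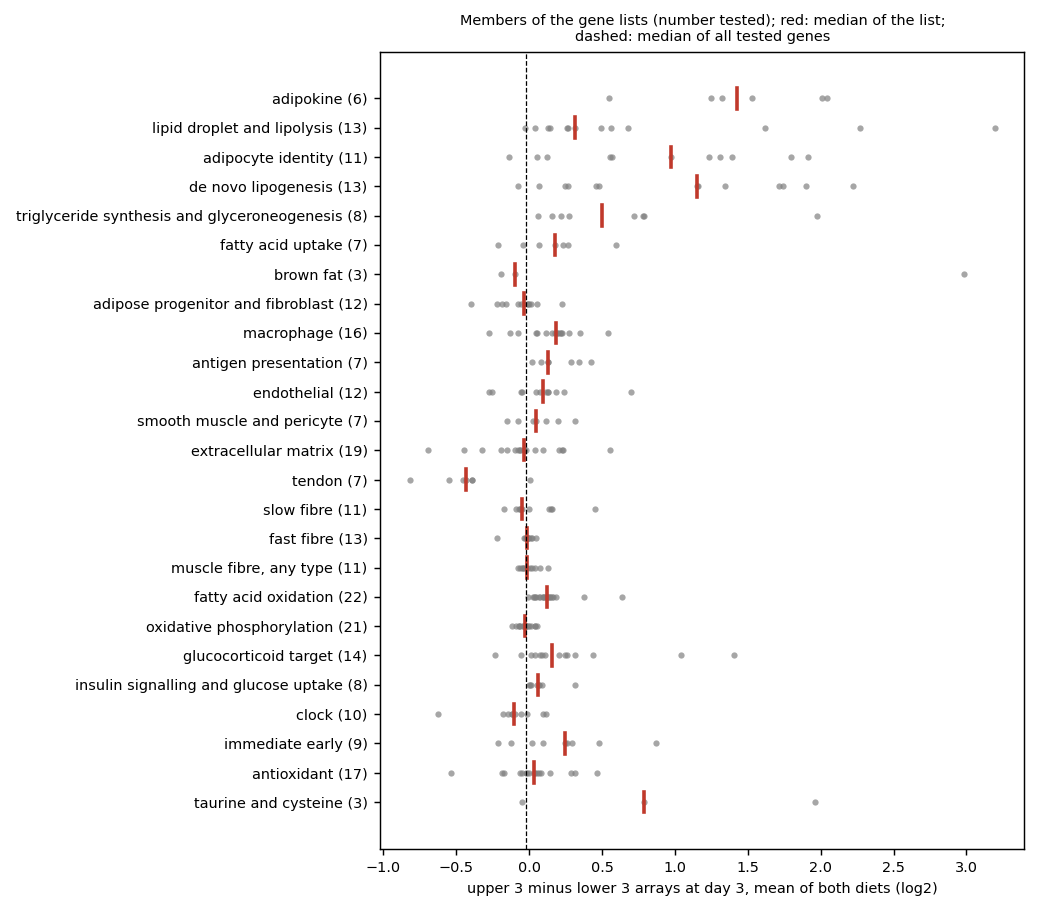
Mean upper minus lower difference at day 3 (log2, horizontal) for each tested member of the gene lists with at least 3 tested genes (grey), the list median (red) and the median of all genes (dashed, -0.02). Adipokines (1.43 with Adipoq, which set the order, and 1.33 without), lipogenesis (1.15) and identity genes (0.97) have the highest medians of the fat lists, and tendon genes the lowest of all lists (-0.43).

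A brown fat transcript was present on some arrays and near the array median on others. Ucp1 was at 7.25, 6.43 and 4.84 in the low fat upper arrays and at 2.19, 1.95 and 1.79 in the lower ones. On high fat it was at 7.33 on replicate 5 and at 1.85 to 2.15 on the other 5 arrays, where the median of all probe sets was 2.74 to 2.78. Ucp1 thus separated the low fat arrays and not the high fat ones, and its mean difference of 2.98 rests there on 1 array. Slc36a2, an amino acid transporter of brown fat that was named after its values were seen, was at 6.59, 6.45 and 6.42 in the low fat upper arrays, with the 3 lower arrays below all of these. On high fat it was at 5.49, 2.97 and 2.58 against 2.62, 2.52 and 1.92, which overlap, and its high fat difference was 1.32, or 0.41 without replicate 5. Of the 11 genes of the brown fat list, 7 were on the array and below the filter. Elovl3 was at 1.42 to 2.49, Dio2 at 1.34 to 1.77 and Prdm16 at 2.11 to 2.80 on the 12 arrays, where the array medians were 2.71 to 2.79. Cox8b and Cox7a1, which muscle expresses too, were at -0.10 and -0.20 in the mean difference.

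Markers of other cells moved with the order on some arrays, and their part in the results was not tested. High fat replicate 5 carried lymphocyte transcripts. Jchain, of antibody-secreting cells, was at 7.58 there, at 3.50 on high fat replicate 4 and at 1.27 to 1.95 elsewhere. Cd79b, of B cells, was at 5.06 against 1.30 to 1.91, and Cd3d, of T cells, at 3.44 against 1.21 to 1.56. These 3 were named after their values were seen. Of the 12 genes on the lymphocyte list 7 were measured and 0 passed the filter, and their summed level (log2 of summed intensities) was 7.99 on that array and 4.34 to 4.85 on the other 11. In the neutrophil and mast cell list, 10 of 12 measured, the sum was 6.18 to 7.33 in the low fat upper arrays and 6.20 to 6.85 in the lower ones, and S100a8 reached 5.24 and 4.30 on low fat replicates 5 and 2. Macrophage markers were above 0 in 13 of 16 cases with a median of 0.19, and without low fat replicate 1 and high fat replicate 5 in 10 of 16 with a median of 0.05. For antigen presentation the median was 0.13 with them and -0.16 without.

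Genes of other connective tissue had medians at or below that of all genes. Adipose progenitor and fibroblast genes had a median of -0.04 and matrix genes one of -0.04. Tendon genes were below 0 in 6 of 7 cases with a median of -0.43, with Kera, a corneal and tendon proteoglycan, at -0.82, Chad, chondroadherin, at -0.55 and Tnmd, tenomodulin, at -0.45. Without high fat replicate 5 the high fat median of the list was -0.12 in place of -0.48, and the high fat difference of Chad was -0.0048 in place of -0.48. Tnmd was at 8.07, 7.10 and 6.89 in the low fat upper arrays and 7.75, 7.63 and 7.60 in the lower ones, which overlap. Slow fibre genes went opposite ways, with a median of -0.53 on low fat and 0.60 on high fat, and Myh7, the slow myosin, overlapped in both diets. Glucocorticoid targets had a median of 0.16. In that list Mt1, a metallothionein, was at 10.43 and 9.37 on low fat replicates 2 and 5 and at 6.68 to 7.32 on the other 10 arrays. Depp1, a target of FoxO factors, was at 10.52 and 9.21 on low fat replicates 5 and 2 and at 4.71 to 8.15 on the others. On low fat replicate 2 the beta-actin control also had a high 3′ to middle ratio, 3.42 (log2) against 1.15 to 2.29 on the other day 3 arrays, which is a sign of RNA or label quality. Without that array 16 genes were counted.

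The day 28 arrays, which the ranking did not use, gave a test of the same relation. At 28 days 13 genes, Cidec and Retn among them, rose with Adipoq in a fit with 1 slope common to both diets. Of the lipid droplet list, 8 of 13 slopes were above 0 and 2 were called. The slope is the change in a gene per unit of log2 Adipoq, fitted with limma over 12 arrays with diet as a term, so that 1 means equal proportional change. Adipoq ranged from 10.19 to 11.71 on low fat and from 7.19 to 9.32 on high fat. Of 5792 genes, 13 had a positive slope at an adjusted p under 0.05 (0.224%) and 0 a negative one, with 576 genes at an unadjusted p under 0.05 (9.94%). Positive slopes made up 52.9% of all genes.

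Cidec rose by 1.10 ± 0.15 (slope, SE, limma adjusted p = 0.0183) and Retn by 1.01 ± 0.14 (adjusted p = 0.0183). On low fat Cidec was 7.60 on the array with the lowest Adipoq and 9.36 on that with the highest, and on high fat 3.50 and 5.70. Tmem45b had the steepest called slope, 1.33 ± 0.23, with adjusted p = 0.0470. Acp5 rose by 0.99, Lipe by 0.91, Pck1 by 0.89 and Scd1 by 0.63, each at adjusted p = 0.0444. Outside the genes counted at day 3, the called genes were Cdo1, the cysteine dioxygenase of the taurine pathway (1.17), Cd1d1, a lipid antigen presenter (1.03), Slc1a5, a glutamine transporter (0.74), Gnai1, an inhibitory G protein (0.66), Hsd3b7, a sterol enzyme (0.57), and Dctpp1, a nucleotide phosphatase (0.35). Hsd3b7 and Dctpp1 had day 3 differences of 0.16 and 0.03, and both overlapped. Among the 16 counted genes besides Adipoq, all had a positive slope, from 0.30 to 1.33, 12 had an unadjusted p under 0.05 (6.94% of all genes had this with a positive slope), and 7 were called, which is 43.8% of the 16 and 53.8% of the 13. Fasn had a slope of 0.70 at adjusted p = 0.376, Ucp1 one of 0.93 at adjusted p = 0.636 and Cidea one of 0.57 at adjusted p = 0.577.

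The number of called slopes was fragile. Leaving out 1 array in turn gave 0 to 9 called genes, with 0 without low fat replicate 1, low fat replicate 5 or high fat replicate 4, and 1 without high fat replicate 5. Leaving out high fat replicate 1 gave 9, and leaving out any of the remaining arrays gave 4 to 6. The 16 genes kept positive slopes in each of these fits, with a median slope of 0.56 to 0.93. When the 3 day 28 arrays with a beta-actin ratio over 2.5 were left out, 2 genes were called.

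**Figure D4:**
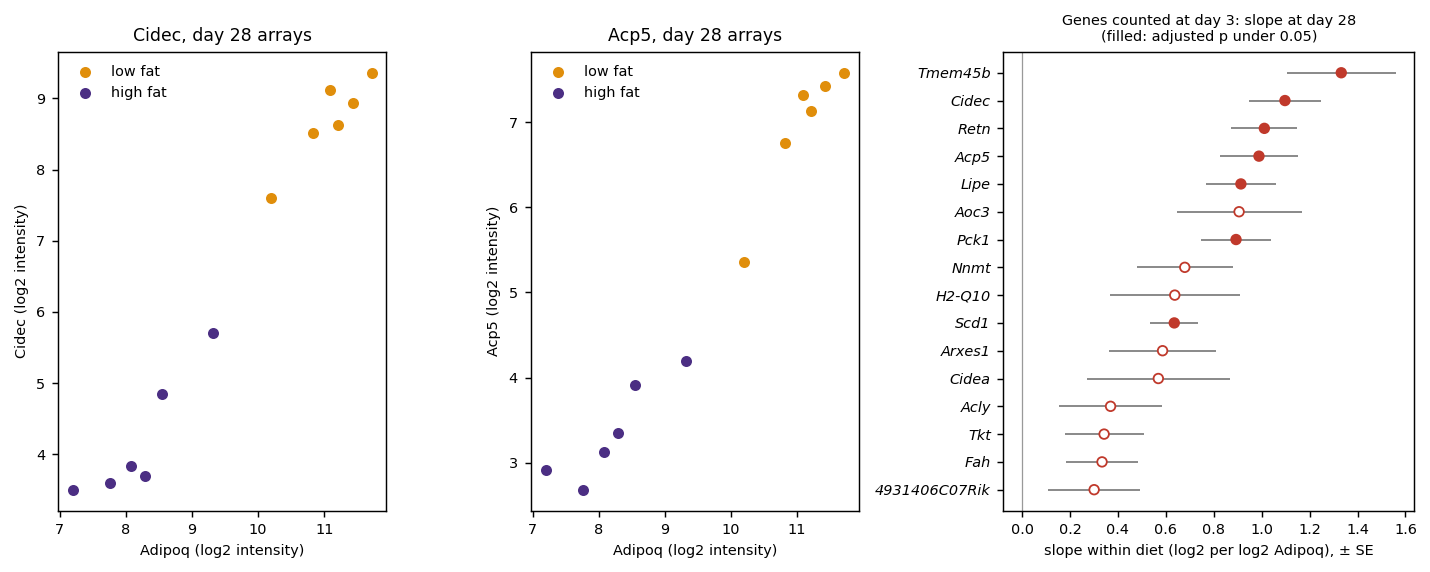
Left and middle, log2 intensity of Cidec and Acp5 against log2 Adipoq on the 12 day 28 arrays, with low fat in orange and high fat in purple. Right, the common within-diet slope on Adipoq with its SE for the 16 genes counted at day 3, from 0.30 for 4931406C07Rik to 1.33 for Tmem45b, with the 7 called genes filled.

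The slopes at day 28 were often shallower on high fat, but the difference was not called for any gene. Of the 16 genes, 14 had a lower slope on high fat, with a median difference of -0.78 against -0.01 for all genes, of which 52.2% were lower. The limma test of the difference called 0 genes, with 285 at an unadjusted p under 0.05 (4.92%), and the lowest adjusted p among the 16 genes was 0.768. The smallest p-values belonged to Cebpa, with slopes of 1.85 on low fat and 0.41 on high fat (difference -1.43 ± 0.18, adjusted p = 0.0512), and Bcar3, an adaptor of integrin signalling, with 0.81 and -0.37 (adjusted p = 0.0549). Cd1d1 had 1.77 and 0.64 (adjusted p = 0.0889). Mrap and Nrg4 had 2.42 and 0.11, and 2.04 and 0.22, both at adjusted p = 0.192. On high fat alone the slope was 0.03 for Cidea, 0.04 for Acly, 0.06 for Tkt and -0.02 for 4931406C07Rik. Cidec had slopes of 1.09 and 1.10 (difference 0.0079 ± 0.33, SE), and Tmem45b had 1.44 and 1.27. The high fat arrays lay lower on the scale at day 28, with Acp5 at 2.68 to 4.19 against 5.36 to 7.58 on low fat. There Cidea was at 1.98 to 2.84, Mrap at 1.96 to 2.79 and Nrg4 at 1.54 to 2.34, where the array medians were 2.72 to 2.74. A slope can hardly show at such levels. Acly at 5.56 to 6.06, Tkt at 4.25 to 4.76 and 4931406C07Rik at 4.42 to 4.87 were above those medians. The part of low levels in the difference of slopes was not tested.

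Adiponectin itself was not called lower on high fat at day 3, and of the 16 counted genes 6 were. Whether Adipoq differed from those 6 in this was not tested. The mean log2 level of Adipoq was 10.11 ± 0.97 (SD, n = 6) for the low fat arrays. It was 8.93 ± 1.22 (SD, n = 6) for the high fat arrays, a difference of -1.18 ± 0.49 (SE, limma adjusted p = 0.108). Of 5793 genes limma called 861 (14.9%), 463 higher and 398 lower on high fat (6.87% lower). Among the 16 counted genes all had a negative difference, with a median of -1.19, and 6 were called lower. Without high fat replicate 5, 11 were called with a median of -1.62, and without low fat replicate 1, 9 with a median of -1.55. In the fit of all arrays the 6 were Cidec (-2.65 ± 0.67, adjusted p = 0.00985), Pck1 (-2.44), Retn (-1.98), Acly (-1.83), H2-Q10 (-1.71) and Tkt (-1.29). The filter asked for a log2 level over 4 on at least 6 arrays, which low fat arrays alone can meet. H2-Q10, Cidea, Fah and Arxes1 exceeded 4 on high fat on day 3 replicate 5 alone. For such genes a lower level on high fat follows in part from the filter. Fasn, which was not among the 16, differed by -3.26 ± 0.75 (adjusted p = 0.00519). When the 12 day 3 arrays were fitted alone, 507 genes were called and none of the 16 was, with Cidec at adjusted p = 0.0591 and Fasn at adjusted p = 0.0501. The calls of Retn, H2-Q10 and Tkt were also lost without any 1 of low fat replicates 2, 5 and 6 or high fat replicates 1, 2, 3 and 4, and that of Retn without low fat replicate 4. Their adjusted p then reached 0.0826 for Retn, 0.0755 for H2-Q10 and 0.0649 for Tkt.

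The 16 genes were chosen on these arrays for following Adipoq, so that a smaller difference at equal Adipoq follows in part from that choice and supports nothing. At equal Adipoq, limma called 774 genes of 5792 (13.4%), 378 higher (6.53%) and 396 lower (6.84%), and the median of the 16 genes was -0.02, with 8 below 0. Of the 16, 2 were still called. Cidec had a difference of -0.99 ± 0.21 (SE, adjusted p = 0.00363) and Pck1 had a difference of -0.91 ± 0.20 (adjusted p = 0.00527). Fasn had -1.41 ± 0.38 (adjusted p = 0.0169), and Arxes2 had -1.07 (adjusted p = 0.0473). Retn had -0.44 (adjusted p = 0.190), Acly -0.78 (adjusted p = 0.0794), Tkt -0.40 (adjusted p = 0.264) and Lipe 0.02 (adjusted p = 0.966). Aoc3 and Nnmt were at 0.83 and 0.64, with adjusted p = 0.0787 and 0.0878. A droplet gene of muscle, Plin5, was higher on high fat by 0.93 alone and by 0.97 at equal Adipoq (adjusted p = 0.00181). Whether a shift in Adipoq per fat cell took part was not tested. Leaving out high fat replicate 5 left 221 called genes, 124 higher and 97 lower, with Cidec at -1.15 and Pck1 at -1.17, both called. Without low fat replicate 1 Fasn had adjusted p = 0.0740. In the fit of the day 3 arrays alone it had adjusted p = 0.0567, and Cidec and Pck1 were called. With the mean of Cidec, Retn and Fasn in place of Adipoq, the median of the 14 genes left was 0.82, with 11 above 0 and 6 called, and Pck1 was at -0.088 (adjusted p = 0.815).

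**Figure D5:**
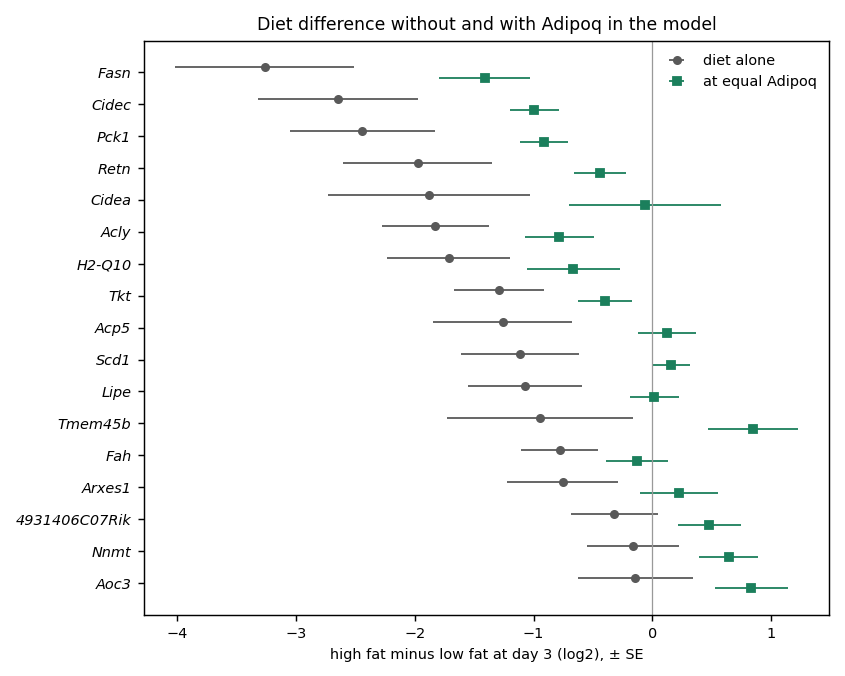
Difference between high fat and low fat at day 3 (log2, with SE) for the 16 counted genes and Fasn, without (grey circles) and with (green squares) log2 Adipoq in the model. At equal Adipoq, Fasn, Cidec and Pck1 are at -1.41, -0.99 and -0.91, and Lipe is at 0.02 against -1.07 without Adipoq. The 16 were chosen on these arrays for following Adipoq.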

How the data were processed

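Total RNA of quadriceps was hybridised to 24 arrays, 1 per mouse. The authors deposited 1 linear intensity per probe set and array, computed with GCRMA per the submitters' processing notes, with no version stated. The log2 of that deposited intensity was taken with no offset. The table holds 16361 probe sets, of which 14771 name 1 gene in GEO's platform annotation, 589 several and 937 none, and 64 are controls. The probe set of highest mean was kept for each gene, and 5793 of 14754 genes exceeded a log2 level of 4 on at least 6 arrays. Of the 450 entries in 31 gene lists, 382 had a gene on the array. The ranked arrays, the genes and the lists were chosen with earlier results of these data known.

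limma 3.58.1 under R 4.3.3 gave the slopes and diet differences (lmFit, then eBayes, two-sided), with Benjamini-Hochberg adjustment over all tested genes. The day 28 slope used 12 arrays with diet as a term. The diet differences used 24 arrays in 4 groups, and the second one added Adipoq with a slope per day. Residual degrees of freedom were 9 for the slope, 8 for its difference between diets, and 20 and 18 for diet. The number of arrays limits the precision. On simulated data of 5792 genes, the slope fit recovered 93 of 100 genes with a slope of 1, and called 15 unchanged genes. The simulation also changed 100 genes at a slope of 2, with noise independent between genes. So many strong changes make the adjusted threshold easier to pass, so this recovery need not hold in the measured data.

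Genes named are the markers, the 15 counted genes of largest difference, the 10 called genes of largest slope, the 5 of smallest p for the difference of slopes, and list members. Alternatives were quantile normalization, an offset of 16, other filters on low values, other covariates, array weights, the replicate number as a block, and leaving out arrays.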

Additional observations from a re-analysis of the deposited data

Results flagged for a closer look

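Single arrays far from the other 5 of their group were sought with Dixon's test in 72 groups, for the markers and counted genes in the 4 groups of mice, and 10 were found. For unrelated values chance gives about 1 in 20 groups. These genes vary together, and the counted ones were chosen on the day 3 arrays for following Adipoq. That rate therefore does not apply to them. Among the high fat day 3 arrays Adipoq was highest on replicate 5. Of the 10, 8 were high values on high fat day 3 replicate 5, where the log2 level was 5.923 for Cidea, 7.211 for Acp5, 4.868 for H2-Q10, 8.687 for Acly, 4.286 for Arxes1, 6.868 for 4931406C07Rik, 7.03 for Tkt and 4.196 for Fah. The same array held the lymphocyte transcripts Jchain and Cd79b, and the part of these cells in the 8 values was not tested. At day 28, Acp5 was low on low fat replicate 1 at 5.355, the array of lowest Adipoq in its group, and Scd1 was high on high fat replicate 5 at 9.394, the array of highest Adipoq in its group.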

How the results depend on the processing

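At day 3, 17 genes were counted, and 11 with 16 added before the logarithm, 27 with a minimum difference of 0.5, 4 with a minimum of 2, and 11 without both low fat replicate 1 and high fat replicate 5, a choice made after seeing the data. Leaving out 1 array at a time gave 13 to 36, where fewer arrays make non-overlap easier to meet. The 13 called slopes at day 28 became 4 with 16 added, 4 with no filter on low values, 5 with the mean of Cidec, Retn and Fasn in place of Adipoq, and 2 without the arrays whose beta-actin ratio was over 2.5, also chosen after seeing the data, and 0 to 9 on leaving out 1 array. Of the differences of slopes, 2 were called with 16 added, 1 with a filter at log2 over 6, 2 with the mean of Cidec, Retn and Fasn, 2 without those high-ratio arrays, and 0 to 2 on leaving out 1 array. The diet calls fell from 861 to 507 and, at equal Adipoq, from 774 to 452 when the 12 day 3 arrays were fitted alone, which leaves fewer arrays. Leaving out 1 array gave 678 to 883 and 221 to 847. The cause of the other changes was not tested.

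The labels name no pairing behind the replicate numbers, and deviations of same-numbered arrays correlated at -0.05 to 0.24 at day 3 and -0.08 to 0.54 at day 28. With the replicate number as a block, 0 slopes and 0 differences of slopes were called, 12 of the 16 counted genes kept a positive slope and the median slope of the 16 was 0.35 in place of 0.66, with 812 and 538 genes called for diet without and with Adipoq. The block turned the slopes of Cidea (-1.99), 4931406C07Rik (-0.89), Tkt (-0.52) and Fah (-0.66), and at equal Adipoq the diet differences of Acp5 (-0.084) and Lipe (-0.062).

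Other changes of sign were in differences not called. The diet difference of Aoc3 was 0.048 without those high-ratio arrays and -0.53 to 0.12 on leaving out 1 array, and that of Nnmt -0.53 to 0.023. At equal Adipoq, Cidea was at 0.96 with the mean of Cidec, Retn and Fasn, at 0.43 with array weights, at 0.083 without those high-ratio arrays and at -0.48 to 0.31 on leaving out 1 array. Tkt and Fah were at 0.11 and 0.27 with that mean. Acp5 and Arxes1 were at -0.011 and -0.039 with array weights, and at -0.26 to 0.28 and -0.33 to 0.40 on leaving out 1 array. Lipe was at -0.0086 without those high-ratio arrays and at -0.062 to 0.12 on leaving out 1 array.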
